A study of Drosophila melanogaster with 2 samples.

Results

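The BTB transcription factor genes chinmo, ttk, lola, ab, psq, bab1, bab2, fru and rib of Drosophila melanogaster were chosen by name, 9 of the 13945 protein-coding genes annotated on the 6 arms of the assembly. The question was where the zinc-finger protein Meics was found at these genes. The material was whole embryos, mixed over both sexes and collected from 0 to 24 hours, of a transgenic strain (Meics-GFP) that stably expresses Meics with a GFP at its C-terminal end. Chromatin was sonicated to 200 to 800 bp and precipitated with an antibody against GFP, and the recovered DNA was sequenced (ChIP-seq). The 2 samples form 1 group and are biological replicates with the numbers 1 and 3, so no treatment or genotype was compared. The promoter that drives the fusion protein is not given in the sources used here, and no control library was analysed here. All stages and tissues of the embryo were pooled, so a region cannot be placed in a cell type.

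A BTB domain lets proteins pair with themselves or with each other, and the name recalls the fly genes broad, tramtrack (ttk) and bric-a-brac (bab1, bab2). In Chinmo, Ttk, Lola, Ab and Fru the domain is joined to zinc fingers that bind DNA, and in Psq, Bab1, Bab2 and Rib to a DNA-binding domain of the Pipsqueak type. Many of these factors repress their targets, and several act late in development, when a neuron, gland or limb segment takes its final form. Their genes are long, with large introns and alternative transcription start sites (TSSs). The 9 genes had a median body of 53.4 kb and 29 distinct TSSs, from 1 at bab1 and bab2 to 7 at fru. The median body of all coding genes was 2.17 kb.

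A list cut by the irreproducible discovery rate (IDR), which keeps regions whose ranks repeat between replicates, was deposited with 7689 regions on the dm6 build. Each region has a summit and the authors' signal value, whose scale is not given in the sources used here. The median signal value of the list was 262, and rank 1 is its strongest region. The pooled list and the list of each replicate held 30000 regions each, weak regions included, and each list was ranked by its own signal values. All 7689 regions were also in the pooled list. Summits at TSSs of lola (rank 634) and ttk (rank 6796) had the same rank in both. Down to rank 6796, then, no region of the pooled list was left out. Presence in the list therefore does not show that a region repeated in each replicate. Read depth is unknown, and the intervals given on shares cover counting error only. All positions are in dm6.

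Every gene of the 9 had IDR-thresholded summits in its body and around it, but few lay at the genes' own starts. A summit lay within 500 bp of an own TSS at 6 of the 9 genes (chinmo, ttk, lola, psq, fru and rib) and at 7 of their 29 TSSs. The same held for 26.1% of all coding genes, for 73.2% of coding genes with 5 or more TSSs, and for 24.6% of all distinct coding TSSs. Only psq and fru among the 9 have 5 or more TSSs, so the count of genes stands between these backgrounds, and the count of TSSs lies at its background. No IDR-thresholded summit lay within 500 bp of a TSS of ab, bab1 or bab2. The pooled list had a region within 500 bp of an own TSS at all 9 genes, against 46.2% of coding genes and 91.6% of those with 5 or more TSSs. It had one at 18 of the 29 TSSs, against 46.6% of distinct coding TSSs. At bab1 the region was near the end of the pooled list, at rank 29492 of 30000. The full list of replicate 1 had such a region at 7 of the 9 genes and 14 TSSs, that of replicate 3 at 9 genes and 19 TSSs. Shares over all coding genes and TSSs are not given here for the replicate lists. These counts therefore have no background and cannot be read as a trait of the 9 genes.

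In the gene bodies, 9 of 9 genes held a summit. This was so for 17.1% of all coding genes and for 69.6% of the 1013 coding genes of 20 kb or more, the class to which all but rib belong. Within 20 kb of the body the count was again 9 of 9, beside 87.4% of all coding genes and 91.2% of the long ones. The bodies held 33 summits and the bodies with their flanks 82, counted once each, since 7 summits lay in the windows of both lola and psq. The density in the bodies was 6.73 summits per 100 kb (exact 95% Poisson interval 4.63 to 9.45, counting error only). It was 4.73 in coding genes of 20 kb or more and 5.74 over the 6 arms, and without psq it was 5.57 (3.57 to 8.29). The interval of the 9 genes held the value of the arms and, by a small margin, that of the long genes.

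**Figure D1:**
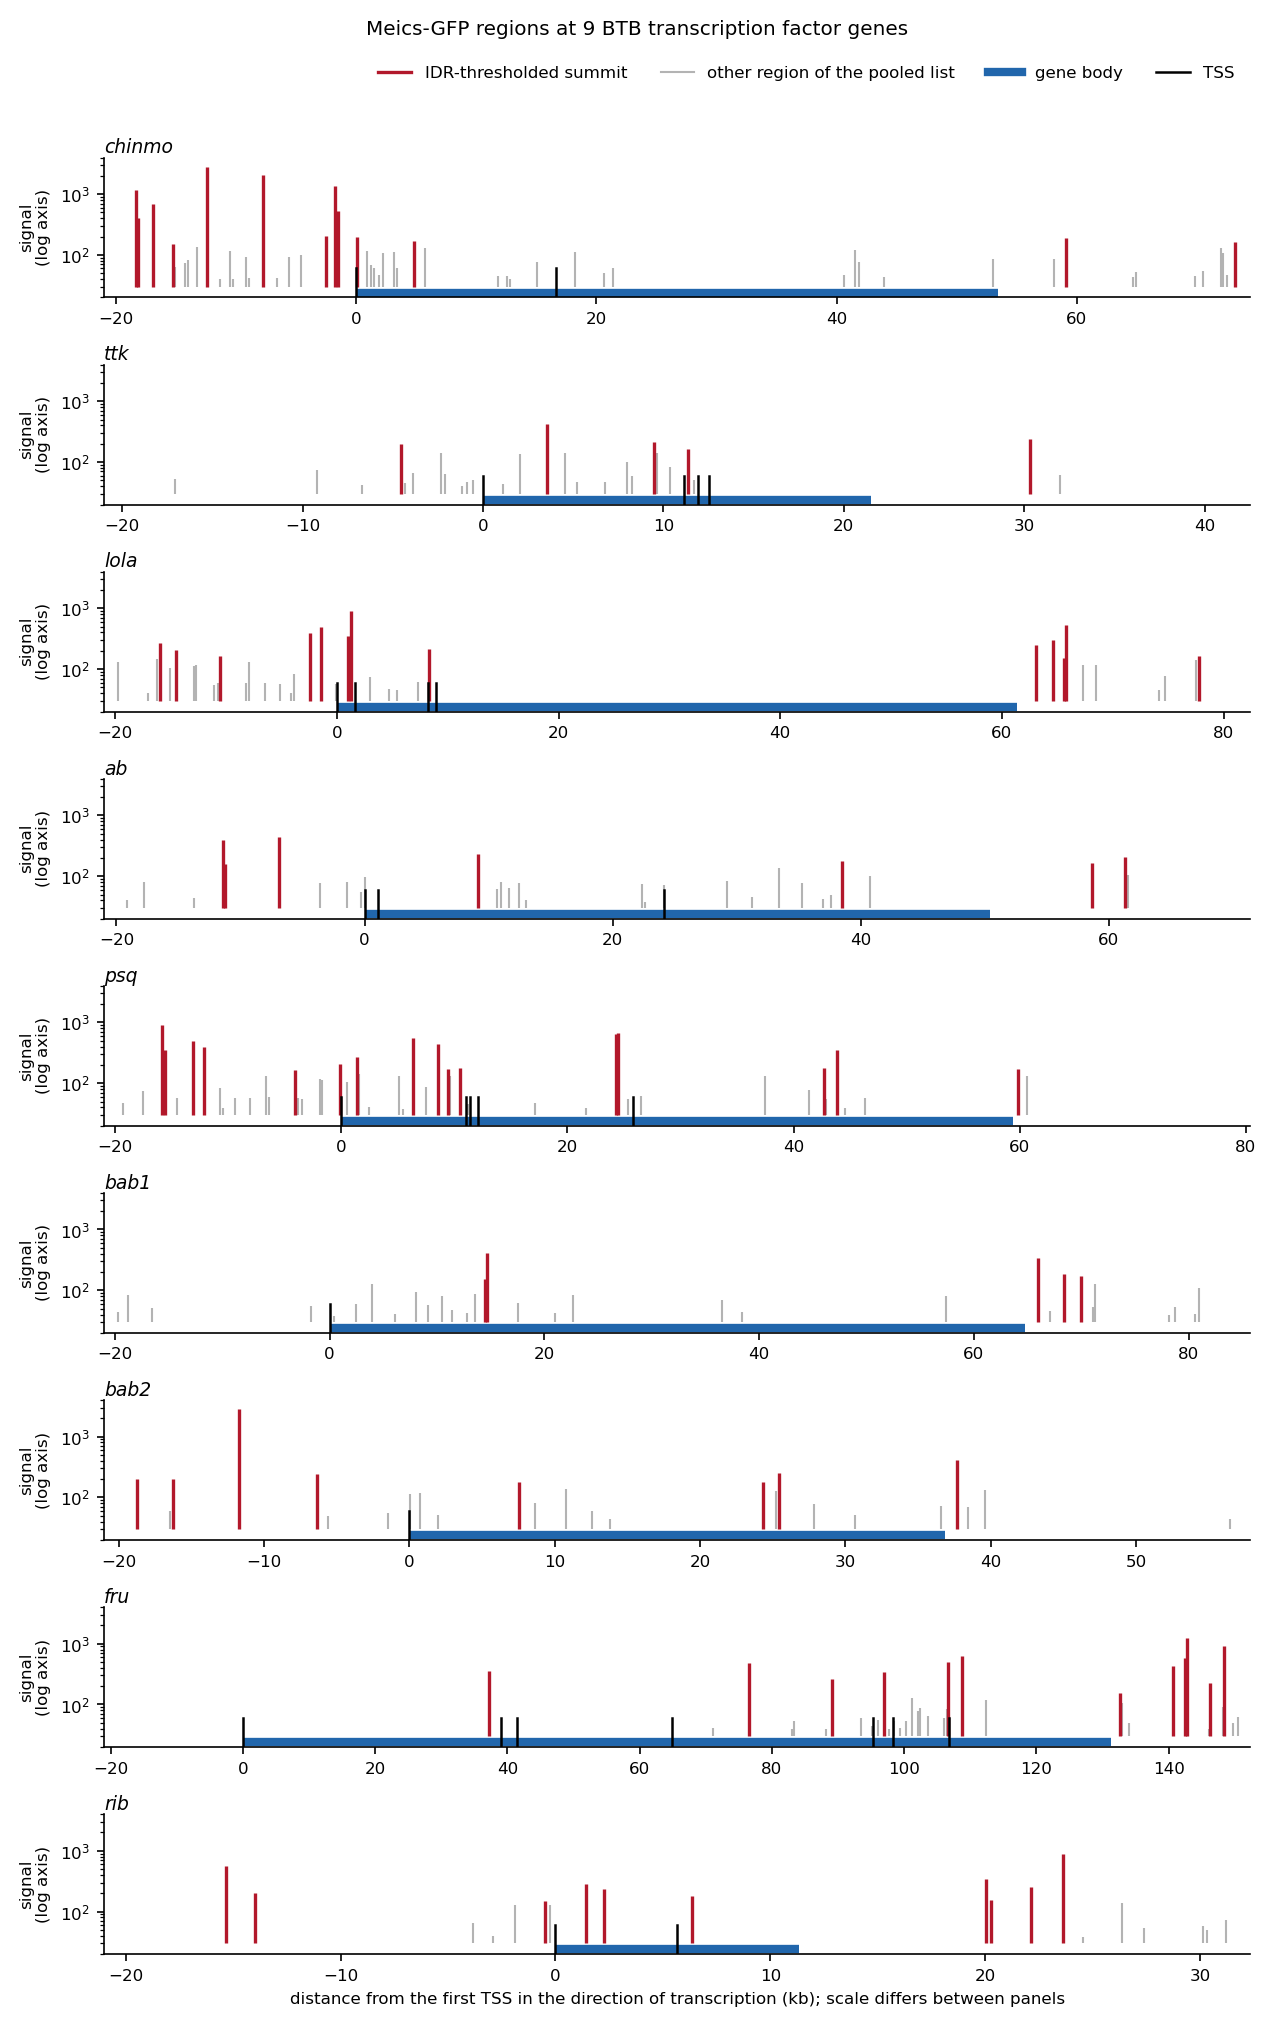
Summits around each gene, plotted by distance from the first TSS in the direction of transcription (kb) and by the authors' signal value (log axis); red lines are IDR-thresholded summits, grey lines other regions of the pooled list, blue bars gene bodies and black ticks TSSs. The tallest red lines stand upstream of chinmo (2845 at 12469 bp) and of bab2 (2826 at 11718 bp), while the red lines at own TSSs are short except at lola and fru.

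The 7 summits at own TSSs were mostly weak. Their median signal value was 206, with 2 of 7 in the upper 50% of the list. All promoter summits in the list had a median of 301, with 56.6% of them in the upper 50%. The strongest summit at each of the 6 genes' own TSSs had a median of 202, against 342 over the 3645 coding genes that have such a summit. Lola alone had the strongest summit of its whole window at an own TSS, 1 of 9 genes. That was the case for 9.84% of all coding genes with a summit in the window, and for 12.6% of those of 20 kb or more. At promoters of other coding genes within the windows the median was 244 (n = 21), also below that of the list's promoter summits, with 8 of 21 in the upper 50%. It was 266 in the bodies away from promoters (n = 28) and 402 outside the bodies and away from promoters (n = 26), where the list's summits away from promoters had 244. The last set was led by chinmo and bab2. Groups of summits chosen by place share neighbourhoods and were not tested against each other.

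**Figure D2:**
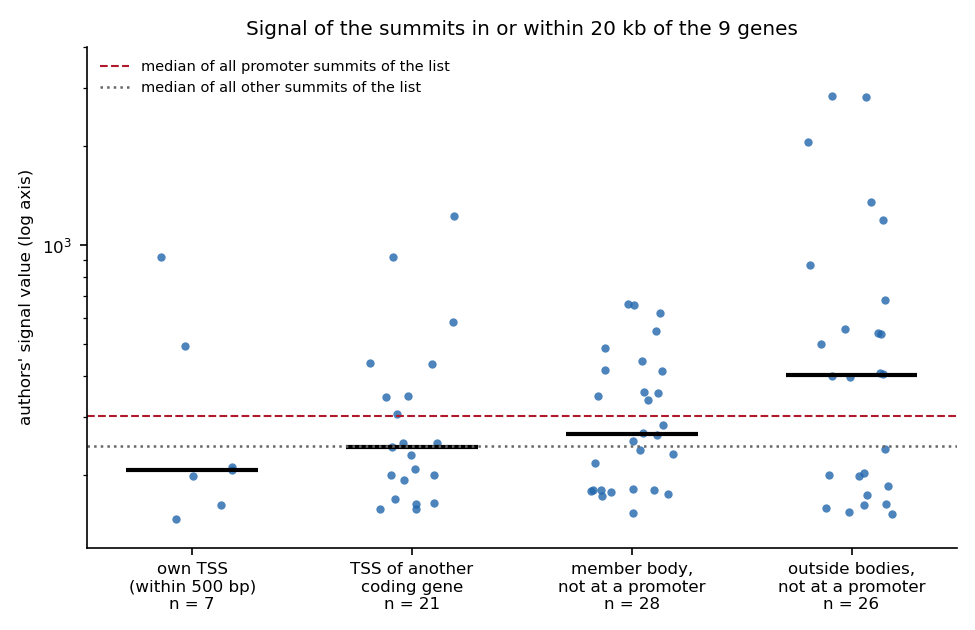
The authors' signal value (log axis) of the 82 summits in or within 20 kb of the 9 genes, by place, with black bars at the medians of 206, 244, 266 and 402; the lines are the medians of all promoter summits (301) and of all other summits (244) of the list. Of the 7 summits at own TSSs, 5 lie under both lines, and the 3 highest points of the plot are outside the gene bodies.

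Chinmo (FBgn0086758), a zinc-finger factor that sets the temporal identity of neurons and maintains male identity in the testis stem cell niche, carried its Meics-GFP signal upstream. The gene spans 2L from 1651258 to 1704682 on the plus strand. In the 20 kb before it lay 9 summits, all intergenic and all with a chinmo TSS as the nearest coding TSS. The median upstream count was 3 over the 9 genes and 1 over all coding genes, and 51 coding genes had 9 or more, up to 14. In the upstream 20 kb, the 7689 strongest regions of replicate 1 alone gave 11 summits and those of replicate 3 gave 9. Some of the 9 were pairs within 1 interval, and with summits under 250 bp from a stronger one left out the count was 7. As the nearest coding gene, chinmo took 11 summits, and 24 coding genes took as many or more.

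The strongest chinmo summit lay 12469 bp upstream of the first TSS, with a signal value of 2845, 10.9 times the list's median, at rank 58 of 7689. It had 1315 in replicate 1, at rank 47, and 1542 in replicate 3, at rank 68. The second, 7786 bp upstream, had 2059 at rank 141, and ranks 129 and 144 in the replicates. They were the strongest summits of the chinmo window, and their sequence is printed here with 50 bp to each side of the summit, plus strand, from the RefSeq copy of the dm6 assembly. The windows are chr2L:1638739-1638839 and chr2L:1643422-1643522. Capitals would mark any of 7 short promoter and enhancer strings searched, and neither window holds any.
chinmo, 12469 bp upstream: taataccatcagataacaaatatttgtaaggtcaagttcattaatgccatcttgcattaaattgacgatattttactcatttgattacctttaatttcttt
chinmo, 7786 bp upstream: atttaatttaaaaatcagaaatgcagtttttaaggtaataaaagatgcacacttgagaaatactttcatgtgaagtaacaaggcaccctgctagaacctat
Both windows are rich in A and T, with 25.7% and 30.7% G and C. The median over all summits of the list was 33.7%.

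Some further chinmo regions upstream were high in both replicates. The summit 1741 bp upstream had a signal value of 1347 at rank 309, with ranks 318 and 312 in replicates 1 and 3. It shares its interval with a lower summit 1539 bp upstream (535). The summit at 18339 bp had 1190.3 at rank 393, with ranks 443 and 382, and shares its interval with a summit at 18136 bp (405). That lower summit was at rank 5170 in replicate 1 and 2038 in replicate 3. The summit at 16937 bp had 679 at rank 1035, with rank 1030 in each replicate. The remaining summits were weak, with 203 at 2515 bp and 154 at 15275 bp. The last was at rank 3242 in replicate 1. Its overlapping region in replicate 3, with the summit 83 bp away, was at rank 21643, so it repeated poorly. At the TSS itself the summit, 35 bp downstream, had 198 at rank 5379, with 77.5 and 115.2 in the replicates at ranks 5908 and 5698. A single other body summit, in intron 2, had 172. No region of the pooled list lay within 500 bp of the second TSS, from which 2 of the 6 transcripts start.

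**Figure D3:**
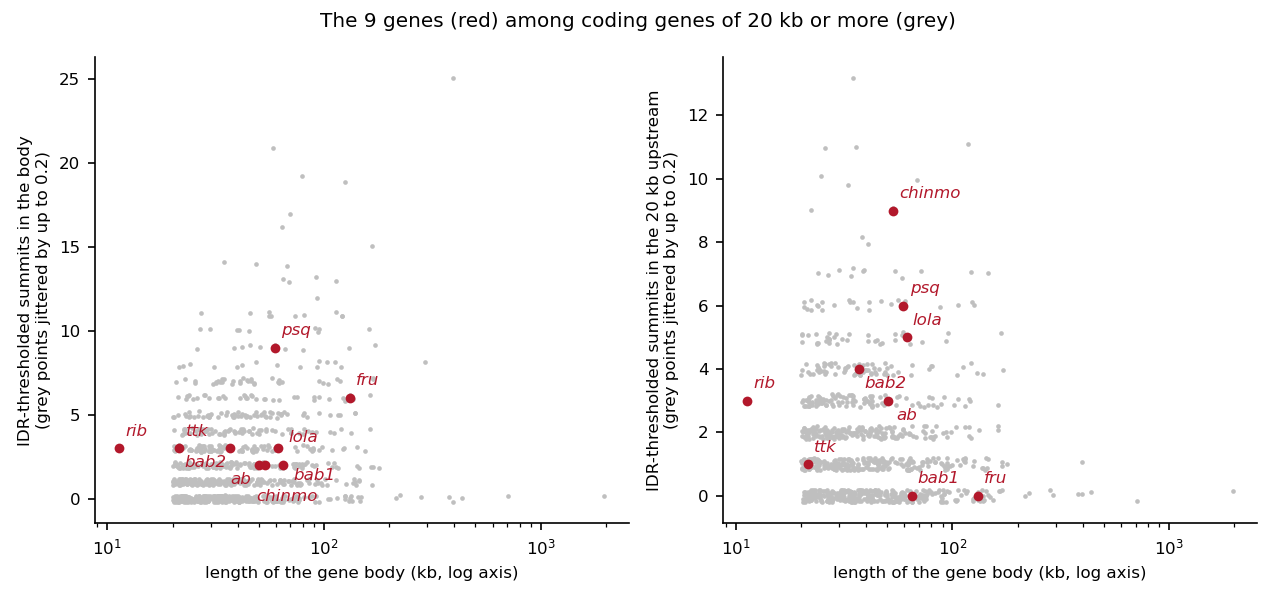
IDR-thresholded summits in the body (left) and in the 20 kb upstream (right) against the length of the gene body (kb, log axis), for the 9 genes in red and coding genes of 20 kb or more in grey. Psq has 9 body summits and chinmo 9 upstream summits, while bab1 and fru have 0 upstream; rib, at 11.3 kb, is shorter than the grey genes.

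Bab1 (FBgn0004870) and bab2 (FBgn0025525) are neighbouring paralogues that pattern the leg segments, the ovary and the pigment of the abdomen. They lie on 3L on the minus strand, bab1 from 1036369 to 1101089 and bab2 from 1140429 to 1177276. Bab2 had 4 upstream summits, each with another gene's TSS as the nearest coding TSS, and the strongest, 11718 bp before its TSS, had a signal value of 2826 at rank 59, with 1283 in replicate 1 (rank 50) and 1552 in replicate 3 (rank 67). No gene body holds it, and CG13912 has the closest coding TSS, 594 bp away, so its assignment to bab2 is by distance window only. The other 3 upstream summits had 199 to 239, and those at 199 lay at the promoters of Trhn, 354 bp away, and Aplip1, 279 bp away. Within bab2, 3 summits in intron 2 had 180 to 252, and a summit just beyond the gene, between the paralogues, had 408.
Bab1 had none in the 20 kb upstream. Its strongest summit was in intron 1, 14647 bp from the TSS, with 412 at rank 2152 and ranks 1857 and 2472 in the replicates, and a weaker summit lay beside it (153). At the TSS, the pooled list had a region 60 bp downstream for bab2, at rank 9830, and 438 bp downstream for bab1, at rank 29492. Replicate 3 had the bab2 region at rank 7200. In replicate 1 the nearest region to that TSS lay 745 bp downstream.

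The windows of the strongest summit at each paralogue follow, which for neither lies at a start, chr3L:1188944-1189044 for bab2 and chr3L:1086392-1086492 for bab1, plus strand. Neither holds any string of the 7.
bab2, 11718 bp upstream: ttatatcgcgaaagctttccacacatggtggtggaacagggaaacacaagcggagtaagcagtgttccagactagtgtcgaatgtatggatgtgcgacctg
bab1, intron 1: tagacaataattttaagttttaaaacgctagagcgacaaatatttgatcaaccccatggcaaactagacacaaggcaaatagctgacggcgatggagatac
The bab2 window has 48.5% G and C and the bab1 window 38.6%, both above the median of the list, in contrast with the chinmo windows.

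Fru (FBgn0004652) specifies male courtship behaviour, and the transcripts that are spliced differently in the sexes start at the most distal promoter. The gene spans 3R from 18414273 to 18545586 on the minus strand, 131 kb with 7 TSSs, numbered from the distal end. Only the last, TSS 7, had an IDR-thresholded summit within 500 bp. That summit, 189 bp upstream, had a signal value of 494 at rank 1608, with 227 in replicate 1 (rank 1434) and 275 in replicate 3 (rank 1778). A stronger summit lay 1962 bp downstream of TSS 7 in an intron, with 620 at rank 1182 and ranks 1265 and 1159. The distal TSS 1, start of 8 of the 15 transcripts, had its nearest IDR-thresholded summit 28374 bp upstream, outside the gene's window. The first summit in the body was 37162 bp from TSS 1. All 6 body summits of fru were above the median of the list, from 265 to 620. Only fru and lola had a signal value above the median at an own TSS.
The strongest summit of the fru window was not in fru. It lay downstream at the promoter of Wdr37, 135 bp upstream of that TSS, with 1221 at rank 375 and ranks 397 and 372, and shared its interval with a summit at the neighbouring koko promoter (581). The remaining 4 downstream summits were also at promoters of other coding genes. The windows at TSS 7 and in the intron are shown because they are the strongest that lie in the gene, chr3R:18438910-18439010 and chr3R:18436759-18436859, plus strand, with capitals for TATAAA read on either strand.
fru, TSS 7: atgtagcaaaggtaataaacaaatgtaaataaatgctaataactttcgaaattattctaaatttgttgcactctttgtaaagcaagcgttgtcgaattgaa
fru, intron beyond TSS 7: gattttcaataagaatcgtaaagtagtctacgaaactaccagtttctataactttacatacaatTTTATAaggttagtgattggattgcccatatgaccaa
The intron window has the string on the minus strand, and the window at TSS 7 has none of the 7 strings.

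Ttk (FBgn0003870) represses neuronal fate and acts in glia, eye and trachea. It spans 3R from 31713867 to 31735392 on the plus strand, with 4 TSSs. The strongest of its 3 body summits was in intron 1, 3576 bp from TSS 1, with a signal value of 418 at rank 2108, and 184 and 238 in the replicates at ranks 1973 and 2185. The summit at TSS 2, 247 bp downstream, had 162 at rank 6796. It was at rank 3262 in replicate 1, while the matched region of replicate 3 was at rank 14537 and another region of that replicate, 19 bp from the TSS, at rank 8531. With the 7689 strongest regions of replicate 3 alone, ttk had no summit at an own TSS and bab2 had one. With those of replicate 1 alone, ttk had summits at 2 TSSs and bab2 at none. The count of genes was 6 in each case. The intron 1 window, chr3R:31717393-31717493 on the plus strand, is shown as the strongest ttk region.
ttk, intron 1: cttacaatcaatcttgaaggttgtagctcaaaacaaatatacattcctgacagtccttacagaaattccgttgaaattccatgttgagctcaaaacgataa
None of the 7 strings is in it.

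Ab (FBgn0264442) shapes the dendrites of sensory neurons. It spans 2L from 11210678 to 11261080 on the plus strand, with 3 TSSs. Its own regions were weak. The body summits lay in introns with signal values of 231 (rank 4481; 93.9 and 134 in the replicates) and 181 (rank 5974; 59.8 and 100.8). The strongest summit of the window, 439 at rank 1952, was 242 bp upstream of the TSS of Ca-beta, a calcium channel subunit gene, and ranked 2376 and 1815 in the replicates. At TSS 1 the pooled list had a region 35 bp downstream at rank 11471, and at TSS 3 a region 55 bp upstream at rank 15973. Both are below the IDR threshold.

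Lola (FBgn0283521), which guides axons and makes many proteins by joining a common start to alternative zinc fingers, had the strongest summit at an own TSS. The gene spans 2R from 10481894 to 10543291 on the minus strand, with 4 TSSs. The summit 376 bp upstream of TSS 2 had a signal value of 917 at rank 634, 3.50 times the median of the list. It had 426 in replicate 1 (rank 532) and 500 in replicate 3 (rank 709). The summit 64 bp downstream of TSS 3, from which 11 of the 24 transcripts start, had 211 at rank 4990, and 81.5 and 119 in the replicates. Upstream of TSS 1 lay summits at 1456 bp (501, rank 1579) and 2403 bp (397, rank 2273), the latter in exonic sequence of lncRNA:acal, a non-coding gene. All 3 IDR-thresholded body summits lay near the starts, and none lay in the rest of the body, where the alternative exons lie. The pooled list, weak regions included, had 7 regions in the body. The 5 downstream summits were at or in other genes, among them whd and Pef.

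Psq (FBgn0263102), which binds GAGAG sequences and acts in oogenesis and with Polycomb group proteins, had the most body summits. It spans 2R from 10557888 to 10617280 on the plus strand, beyond the start of lola, with 5 TSSs. It held 9 body summits, all in introns, and 46 coding genes had as many or more. With summits under 250 bp from a stronger one left out it had 8, and replicates 1 and 3 alone gave 10 and 9. The strongest was 1326 bp upstream of TSS 5, with a signal value of 661 at rank 1071 and ranks 1047 and 1123. A second summit 223 bp away had 656 at rank 1081, with rank 1041 in replicate 1 and no overlapping region in replicate 3. The others ranged from 174 to 549. The strongest summit of the whole psq window was that of lola TSS 2, which lies 15842 bp upstream of psq. The summit at TSS 1, 106 bp upstream, had 206 at rank 5153, with 87.0 and 121 in the replicates at ranks 5147 and 5405. Just outside the 500 bp window was a summit of 179, 535 bp upstream of TSS 2.

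Rib (FBgn0003254), needed for the shaping of salivary gland and tracheal tubes, was the shortest of the 9. It spans 2R from 19270078 to 19281396 on the plus strand, with 2 TSSs. Its TSS summit lay 473 bp upstream, just inside the 500 bp window, with a signal value of 146 at rank 7580, and 68.9 and 95.3 in the replicates at ranks 6771 and 7090. It was the weakest of the 82 summits. The 3 intron summits had 284, 237 and 178. The strongest summit of the window, 872 at rank 692 with ranks 885 and 587, lay in an intron of Tab2, 17945 bp downstream of TSS 2, and 3 other downstream summits were at the promoters of Fkbp12 and mip40.

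Over the 82 summits, the interval of each class held the share of the whole list. These intervals are wide, neighbouring summits are not independent, and no difference was tested. Promoters of any coding gene held 28 (34.1%, Wilson 95% interval 24.8 to 44.9), against 43.0% of the list, and 21 of the 28 were promoters of genes other than the 9. Introns held 35 (42.7%, 32.5 to 53.5, list 38.7%) and intergenic DNA 16 (19.5%, 12.4 to 29.4, list 14.3%), 9 of them upstream of chinmo. Coding exons and 5′ untranslated exons held 0 of 82, which allows a share of up to 4.48% (upper Wilson limit). These classes held 0.338% and 0.611% of the list. By signal, 40 of the 82 (48.8%) were in the upper 50% of the list, with a median of 251.

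The summits at these genes repeated between replicates much as the list did. A region of replicate 1 overlapped 82 of 82 and a region of replicate 3 overlapped 81. Of those 81, 68 (84.0%) were within the 7689 strongest regions of both, against 80.6% of the list. The ranks differed by a median factor of 1.27, against 1.25, and by more than 2-fold at 9 summits (11.1%, list 8.39%). Among the 9 of them in the strongest 10% of the list, no rank differed by more than 1.51-fold. Of the 9 summits over 2-fold, 6 had a signal value below the median of the list and 3 above it. The difference was 6.68-fold at the weak chinmo summit 15275 bp upstream. It was 4.78-fold at the lola summit 590 bp upstream of TSS 2, which had 348 at rank 2696, with rank 3880 in replicate 1 and 811 in replicate 3.

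**Figure D4:**
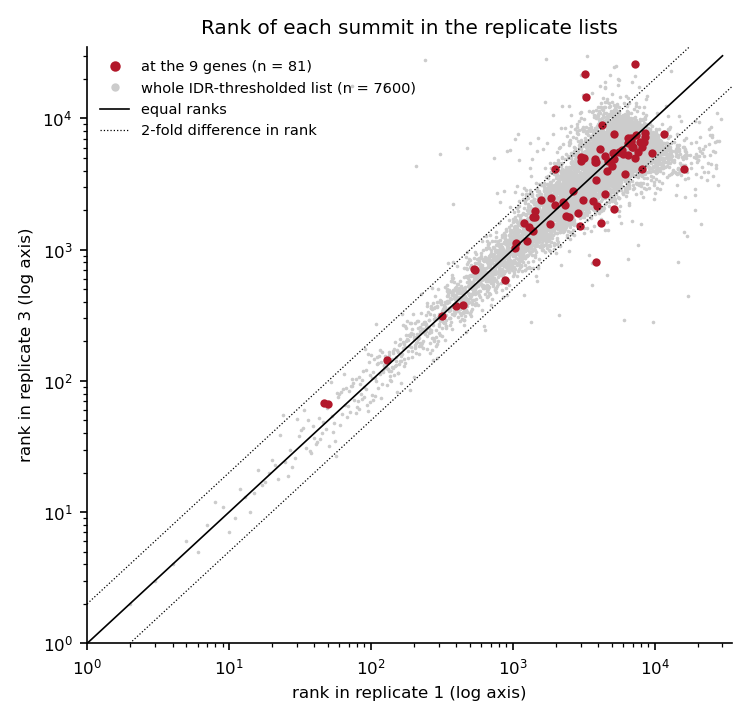
Rank by signal value in the list of replicate 1 against that in replicate 3 (both log axes, rank 1 strongest) for the 81 summits at the 9 genes that have an overlapping region in both (red) and for the 7600 such summits of the whole list (grey); dotted lines mark a 2-fold difference. The chinmo and bab2 summits at ranks 47 to 68 lie within the dotted lines at the lower left, and the red points beyond the lines are towards the upper right.

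Windows of 50 bp to each side of a summit were searched on both strands for TATCGATA (the DNA replication-related element), GGTCACACT (a core promoter element), TATAAA (the TATA box), GAGAG (bound by the GAGA factor and by Psq), CACGTG (an E-box), GTAACGAA and GTGACGAA. No string contains another. TATAAA was in 11 of the 82 windows (13.4%), in 22.1% of all windows of the list and in 15.5% of windows of the same length around 19252 coding TSSs. GAGAG was in 4 (4.88%), against 10.4% and 12.7%. TATCGATA, GGTCACACT and GTAACGAA were in 0 of 82, and their shares of the list were 1.46%, 0.689% and 0.988%. Their shares of TSS windows were 4.48%, 3.64% and 0.223%. GTGACGAA was in 1 window (1.22%), against 1.69% of the list and 0.255% of TSS windows, and CACGTG in 1 (1.22%), against 0.832% and 1.82%. No count was tested, and a string is a description of the letters, not a site.

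Other BTB genes of the fly were listed beside the 9, and 8 of the 9 listed (br, Trl, mod(mdg4), Cp190, ken, mamo, lolal and BtbVII) were found in the annotation, the exception being pfk. Of these 8, 5 had a summit within 500 bp of an own TSS, a count like that of the 9 genes. The share was 26.1% over all coding genes and 73.2% over those with 5 or more TSSs. The strongest were at the genes of an insulator protein and of the GAGA factor. The signal value at the TSS was 1789 (rank 177) at Cp190, which encodes an insulator protein, and 1109 (rank 466) at Trl, which encodes the GAGA factor. The Cp190 summit lay 144 bp from its TSS, but a coding TSS of another gene was nearer. Its assignment to Cp190 is therefore by distance window only. It was 490.01 (rank 1631) at lolal, whose short product is a BTB protein related to Lola, and 449 (rank 1866) at BtbVII. The summit at the TSS of mod(mdg4), an insulator gene, had 191 (rank 5596). The values at lolal, BtbVII and mod(mdg4) lie within the range of the strongest own-TSS summits of the 9 genes, 146 to 917, and those at Cp190 and Trl above it. No summit lay at the TSSs of br, an ecdysone response factor, mamo, which acts in the germ line, or ken, and br and mamo had no region of the pooled list there. The median of the strongest TSS summit was 490.01 over these 5 genes and 202 over the 6. Both sets are small and overlap, and no difference between them was tested.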

How the data were processed

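The authors deposited peak lists on dm6 for each replicate, for the pooled replicates and thresholded by IDR from both, per the labels and file names. Which aligner, caller and IDR threshold they used is not given in the sources used here. The signal value, summit offset and −log10 q-value of each region are the authors' deposited values. The −log10 q-value reaches a ceiling and was not used for ranking. The dm3 lists were not used here. Depth is unknown.

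Summits were joined to the Ensembl annotation (Ensembl 115, BDGP release 6.54, the dm6 assembly) with TSS windows of 500 bp and flanks of 20 kb. A summit was placed in the first class that applied of promoter, 5′ UTR, coding exon, 3′ UTR, non-coding exon, intron and intergenic. A replicate's matching region is the overlapping region with the nearest summit. No test was made, since there is 1 group; counts stand beside the share over all genes. The code was tested on simulated data with planted summits. The 9 genes, the other BTB genes and the strings were chosen with earlier results of these data known. All 9 genes are named, with the strongest summit of each and those at its TSSs; further summits, among them all at chinmo, were named after their values were seen. Windows on 1 arm, and those that touch a UTR, are not printed. The tools were Python 3.11.15 with matplotlib 3.10.9, scipy 1.17.1, pandas 2.3.3 and numpy 2.4.6.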

Additional observations from a re-analysis of the deposited data

How the results depend on the processing

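The counts at the genes' starts followed the window and the list. TSSs with a summit numbered 7 as reported, 18 with all regions of the pooled list, 12 and 4 with windows of 1000 and 200 bp, 11 with the whole interval in place of the summit, and 2 in the upper 50% by signal value. The number of genes with a summit at a TSS fell from 6 to 2 in that upper 50%, leaving lola and fru. Over all distinct coding TSSs the share also rose with the pooled list, from 24.6% to 46.6%. Shares over all coding genes or TSSs are not given here for the other settings. Those changes therefore have no background and cannot be read as traits of the 9 genes. The promoter share of the summits at the 9 genes was 34.1% as reported, 18.5% in the pooled list and 23.2% with a 200 bp window. Over the whole lists it was 43.0% in the IDR-thresholded list and 26.6% in the pooled list, so it fell there too. No share of the whole list is given for the 200 bp window. The summits in and around the genes numbered 82, against 281 in the pooled list and 40 in the upper 50%, and those in the bodies 33, against 145 and 17. With each replicate's 7689 strongest regions alone, the ranges were 7 to 9 TSSs, 6 to 6 genes with a summit at a TSS, 9 to 9 genes in the body and around it, 5 to 5 other BTB genes, 30.8% to 33.3% for the share, 84 to 91 summits around and 34 to 39 in the bodies. Dropping summits closer than 250 bp to a stronger summit, chosen after seeing the data because paired summits lay just over 200 bp apart, gave 73 and 30 summits. No paired analysis was possible because there is only 1 group. Depth is unknown, so no limit on signal can be given for regions under the IDR threshold, as at ab and bab1.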
